A study of Artemia parthenogenetic lineage with 3 samples.

Results

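Chromatin accessibility around 2 signalling genes, the epidermal growth factor receptor gene (EGFR, evm.TU.ctg470.4) and the gene for Loco, a regulator of G-protein signalling (evm.TU.ctg756.7), was examined in *Artemia* cysts 30 min after the end of diapause. The members are all merged ATAC-seq peaks whose nearest gene start belongs to either gene, 44 of 108316 peaks, with 30 for EGFR and 14 for Loco. The table lists 12002 genes, each of them the nearest to some peak. The gene names are those of the study, which singled out both genes partly from these samples, and so their accessibility here is a description and not independent evidence of their part in diapause.

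The samples were whole wild-type cysts of a parthenogenetic *Artemia* lineage from a lake population. Drying and cold storage had ended diapause, after which the cysts were left to resume development in salt water with the light on. All 3 samples belong to the ArR_30min group and are called biological replicates by the study. The study took its cysts from a single batch, so the SD (n = 3) and the p-values measure only the spread between samples of that batch. No cyst in diapause and none at a later time was analysed here, and no change over time can be read from the values. Library totals recovered from the normalised values were 53022270, 56882821 and 82440230 reads in replicates 1, 2 and 3, of which 11.1% to 12.2% lay in peaks. Since a cyst is a whole embryo, a peak open in fewer cells and a peak less open in each cell cannot be told apart.

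EGFR is a receptor tyrosine kinase. Binding of an EGF-like ligand pairs the receptors, which phosphorylate each other and start the Ras, Raf and MAP kinase cascade. Loco belongs to the RGS proteins, which speed up GTP hydrolysis by the alpha subunit of a G protein and so end the signal of a G-protein-coupled receptor. In *Drosophila* both genes are known for their roles in patterning the egg and embryo.

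ATAC-seq marks DNA that the transposase Tn5 can reach. The signal of a peak is given in RPM (reads-per-million, its reads scaled to the library total). Positions are on the *A. franciscana* assembly ASM3288406v1. Peaks were placed as intragenic if they overlapped the gene by at least 1 bp and otherwise as upstream or downstream of it. A wider peak collects more reads, so RPM per kb of peak width is given where widths matter.

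Most peaks assigned to EGFR lay in front of the gene. EGFR occupies 257031 to 350676 of contig ctg470 on the minus strand, 93.6 kb long, so that its start is at 350676 and upstream positions have higher numbers. Of its 30 peaks, 20 were upstream, 10 intragenic and 0 downstream. A downstream peak was not possible, since any site past the gene end is nearer to the start of the neighbour evm.TU.ctg470.3. No peak overlapped the start. The nearest upstream peak, at 354772 to 355152 and 4.10 kb from the start, had 1.92, 1.11 and 1.37 RPM in replicates 1, 2 and 3 (1.47 ± 0.417). The nearest peak inside the gene, at 338176 to 338536 and 12.1 kb from the start, had 1.21, 0.861 and 0.885 RPM (0.985 ± 0.193). A stretch of 16.2 kb around the EGFR start therefore held no merged peak. The start is that of the gene model, and where transcription begins was not examined.

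The 3 strongest EGFR peaks in RPM were all upstream and far from the start. The strongest, at 387769 to 388954 and 37.1 kb upstream, had 5.96, 4.22 and 4.73 RPM (4.97 ± 0.895). With 1186 bp it was also the widest of the gene, and its 10 summits formed 5 groups, of which the largest put 5 summits within 37 bp. The next, at 455981 to 456796 and 105 kb upstream, had 5.68, 3.46 and 4.14 RPM (4.43 ± 1.13). The peak ranked 3, at 368763 to 369363 and 18.1 kb upstream, had 4.87, 3.23 and 3.41 RPM (3.84 ± 0.896). Per kb of width the order was different, with 6.38 ± 1.49 RPM per kb for the peak at 18.1 kb and 5.42 ± 1.39 for that at 105 kb. An intragenic peak at 276351 to 276601, 251 bp wide, came next with 4.75 ± 0.235 RPM per kb, and the widest peak ranked 5 with 4.19 ± 0.754. In RPM each of the 3 was higher than the next in 3 of 3 replicates, but their ranges across replicates overlapped. The lowest value of the peak at 18.1 kb, 3.23 RPM, was above the highest of any replicate of the next peak, 2.53 RPM.

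That next peak, at 466968 to 467504 and 116 kb upstream, was the furthest from the gene, and it had 2.53, 2.53 and 2.21 RPM (2.42 ± 0.186). Its 12 summits fell into 2 groups of 6, within 18 and 23 bp. The peak ranked 5, at 382096 to 382632 and 31.4 kb upstream, had 2.60, 1.76 and 2.29 RPM (2.22 ± 0.427) and was not separated from the one before it, being lower in 1 replicate only. The strongest intragenic peak ranked 6, at 310983 to 311618 and 39.1 kb past the start, with 2.53, 1.93 and 2.07 RPM (2.18 ± 0.310). The weakest EGFR peak, at 426175 to 426383 and 75.5 kb upstream, had 0.283, 0.334 and 0.449 RPM (0.355 ± 0.0850).

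**Figure D1:**
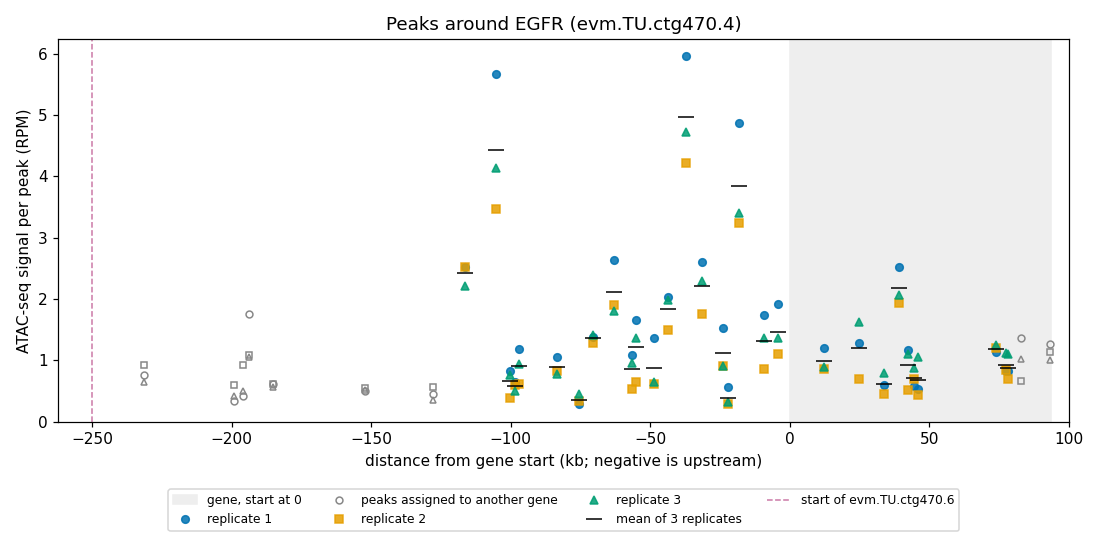
Signal of each peak around EGFR (RPM, vertical axis) against its distance from the gene start (kb, horizontal axis, upstream negative), with 1 symbol per replicate and a bar for the mean. Filled symbols are the 30 EGFR peaks, open grey symbols are peaks assigned to a neighbouring gene, the shaded area is the gene and the dashed line the start of evm.TU.ctg470.6. The 3 highest peaks lie 18.1, 37.1 and 105 kb upstream, and there is no peak over the start.

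Signal was spread over many EGFR sites. The 30 peaks summed to 52.2, 36.0 and 44.2 RPM in replicates 1, 2 and 3 (44.1 ± 8.15). The strongest peak held 11.3% ± 0.530 of this sum, the strongest 3 held 29.9% ± 1.95 and the strongest 10 held 60.9% ± 3.16. The 20 upstream peaks summed to 33.8 ± 7.09 RPM and the 10 intragenic peaks to 10.3 ± 1.80 RPM. In steps of 20 kb, the largest sum was 8.69 ± 1.78 RPM from 4 peaks at 20 to 40 kb upstream, followed by 7.51 ± 1.37 RPM from 3 peaks at 100 to 120 kb upstream. The first 20 kb of the gene held 1 peak. Inside the gene the peaks came in small runs, among them 4 between 304444 and 311618 and 3 between 272093 and 276601, with 27.8 kb without an EGFR peak between these runs.

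Upstream EGFR peaks were stronger than intragenic ones in each replicate, but by an amount close to the spread between replicates. The median upstream peak had 1.59, 0.888 and 1.36 RPM and the median intragenic peak 0.981, 0.703 and 1.10 RPM. Scaled to width, these classes had medians of 3.48 ± 0.992 and 2.55 ± 0.574 RPM per kb. On the log2(RPM per kb + 0.216) scale, where the added value is 0.1 of the median over all peaks, intragenic minus upstream was -0.83, -0.27 and -0.11, with a mean of -0.41 ± 0.38 (SD, n = 3). An exact permutation of the signs of the 3 replicates (two-sided) gave p = 0.25, the smallest p that 3 samples allow. The difference was carried largely by replicate 1, without which the mean was -0.19.

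EGFR shares its upstream region with another of the signal transduction genes listed by the study. The next listed gene on ctg470 is evm.TU.ctg470.6, on the plus strand, and the genes are read away from each other, with 250 kb between their starts (350676 and 600763). Since a peak goes to the nearest start, the interval is split at 125 kb. The EGFR side held 20 peaks, or 16.0 per 100 kb, and the side of evm.TU.ctg470.6 held 7, or 5.60 per 100 kb, against 6.84 per 100 kb over all contigs. EGFR peaks carried 33.8 ± 7.09 of the 38.5 ± 7.02 RPM of the interval, 87.8%. The 7 peaks on the other side had means from 0.450 to 1.30 RPM. Identifiers jump from evm.TU.ctg470.4 to evm.TU.ctg470.6 here, and a gene nearest to no peak is not in the table, so the interval may hold a gene not analysed here.

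Assignment by the nearest start also took 2 peaks out of the EGFR gene. They lie inside its last part, at 257147 to 257632 with 1.14 ± 0.128 RPM and at 267557 to 267869 with 1.02 ± 0.345 RPM, and were assigned to evm.TU.ctg470.3, which starts closer. With both counted, the gene held 12 peaks, and intragenic minus upstream was -0.37 ± 0.34 on the same log2 scale (exact permutation of signs, p = 0.25).

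Most peaks assigned to Loco lay inside the gene. Loco occupies 402081 to 569549 of ctg756 on the minus strand, 167 kb long, with its start at 569549. Of its 14 peaks, 12 were intragenic, 2 upstream and 0 downstream. A downstream peak was not possible, since any site past the gene end is nearer to the start of evm.TU.ctg756.6. Upstream, Loco can take peaks only up to 19.1 kb from its start, against 125 kb for EGFR. Per 100 kb, Loco had 10.5 peaks on this upstream stretch and 10.2 merged peaks in its body, whichever gene they were assigned to. EGFR had 16.0 and 12.8, so by density the layouts were not opposite. A peak covered the start, at 569243 to 569819, with 1.62, 1.42 and 1.31 RPM in replicates 1, 2 and 3 (1.45 ± 0.158) and 2.52 ± 0.274 RPM per kb. It was highest in replicate 1. For comparison, the median peak over a gene start in these libraries had 1.85 ± 0.347 RPM and 2.96 ± 0.553 RPM per kb, and the median width of such peaks was 639 bp against 577 bp at Loco. Another peak lay 2.62 kb inside the gene, at 566552 to 566925, with 1.26, 0.774 and 1.42 RPM (1.15 ± 0.337).

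The strongest Loco peak was nevertheless an upstream one. At 586066 to 586769, 16.5 kb from the start, the replicates had 3.39, 2.51 and 2.43 RPM (2.78 ± 0.536), and 5 of its 6 summits fell within 36 bp. The second in order was deep in the gene, at 479266 to 479944 and 89.6 kb past the start, with 2.30, 1.83 and 1.82 RPM (1.98 ± 0.275) and 7 summits. The start peak ranked 3. These 3 peaks were ordered alike in 3 of 3 replicates, and the ranges of neighbours in the order did not overlap (at least 2.43 against at most 2.30 RPM, and at least 1.82 against at most 1.62 RPM). Below them the ranges overlapped. The peak 84.9 kb past the start, at 484284 to 484695, ranked 5 with 1.40, 0.914 and 0.752 RPM (1.02 ± 0.335), and the peak 2.62 kb inside the gene was higher than it in 1 of 3 replicates only. The weakest peak, at 498680 to 498879 and 70.7 kb past the start, had 0.641, 0.176 and 0.400 RPM (0.406 ± 0.233), from 33, 9 and 32 reads.

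**Figure D2:**
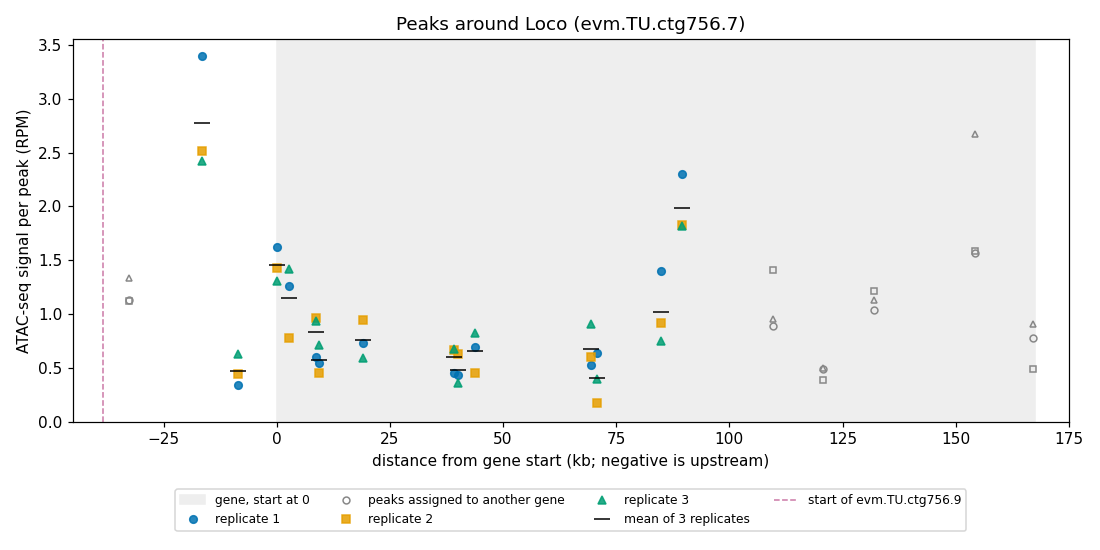
Signal of each peak around Loco (RPM, vertical axis) against its distance from the gene start (kb, horizontal axis, upstream negative), drawn as for EGFR, with the dashed line at the start of evm.TU.ctg756.9. The highest peak lies 16.5 kb upstream, a peak sits over the start, and the 5 open grey peaks in the last part of the gene were assigned to evm.TU.ctg756.6.

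Loco had fewer peaks than EGFR, and the share of its strongest was close to that of genes of like length and peak number. The 14 peaks summed to 15.0, 12.8 and 13.8 RPM (13.8 ± 1.08). The strongest held 20.1% of the mean sum. In the 691 like genes described below, the median share was 19.0% (quartiles 14.9% and 23.9%). The strongest 3 Loco peaks held 44.8% ± 4.31 of the sum. Of the other 11 peaks, 9 had means below 1 RPM, as did 70.1% of all merged peaks. In steps of 20 kb, the first 20 kb of the gene held 5 peaks with 4.77 ± 0.201 RPM, and the next 20 kb held a single weak peak. The longest gap between neighbouring Loco peaks was 25.4 kb, against a median gap of 5.77 kb. With only 2 upstream and 0 downstream peaks, position classes of Loco were not compared.

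The last part of Loco appeared empty only because of the assignment. From the deepest assigned peak to the end of the gene are 77.2 kb, 46.1% of its length, and 5 merged peaks lie there, assigned to the neighbour evm.TU.ctg756.6. The strongest of them, at 414959 to 415700, had 1.57, 1.58 and 2.67 RPM (1.94 ± 0.632), close to the peak ranked second among the assigned ones. The others had means between 0.458 and 1.13 RPM. With these 5, the body of Loco held 17 merged peaks. Of the 691 genes of like length and peak number described next, 88.6% held fewer, with a median of 10 (quartiles 8 and 14).

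Both genes were set against genes of like build, defined as genes whose length and number of assigned peaks were each within 1.5 times of the member. There were 281 such genes for EGFR and 691 for Loco. Percentages of these genes describe the table and are not tests. For EGFR, the strongest peak (4.97 ± 0.895 RPM) was higher than that of 70.8% of like genes, whose median was 3.46 RPM. Its median peak, 1.05 RPM, was higher than that of 84.0% (median 0.730 RPM), and the sum over its peaks was higher than that of 87.5% (median 25.1 RPM). For Loco, the strongest peak (2.78 ± 0.536 RPM) was higher than that of 66.1% (median 2.20 RPM), the median peak of 0.719 RPM higher than that of 71.9% (median 0.617 RPM) and the sum higher than that of 66.6% (median 11.5 RPM). By replicate, the standing of the median peak ranged from 70.8% to 89.3% for EGFR and from 60.8% to 77.7% for Loco.

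**Figure D3:**
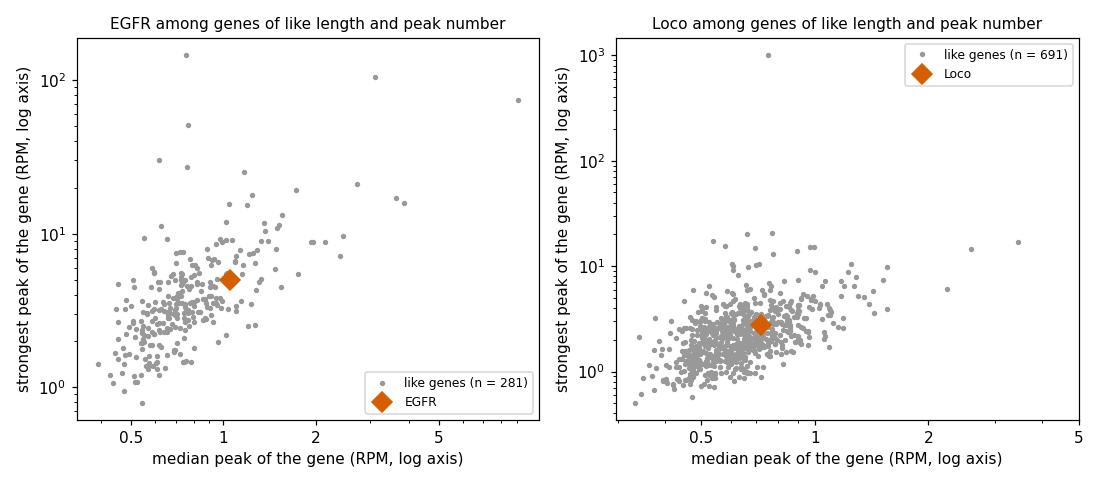
Strongest peak (RPM, vertical log axis) against median peak (RPM, horizontal log axis) of each gene, as means of the 3 replicates. Grey points are the 281 genes like EGFR (left) and the 691 genes like Loco (right) in length and number of peaks, and the diamonds are EGFR at 4.97 and 1.05 RPM and Loco at 2.78 and 0.719 RPM, both inside the cloud.

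The layout of EGFR peaks was on the upstream side of what like genes show. Among them, 63.3% had a peak within 3 kb of the start and 31.7% one over it, while EGFR had neither. The share of peaks lying upstream, 66.7% for EGFR, exceeded that of 81.5% of like genes (median 33.3%), and 10.3% of them had at least as many upstream peaks. Like genes also had shorter free space in front of them, with a median of 102 kb to the next listed gene in the 199 where it could be measured, and EGFR with 250 kb exceeded 78.4% of these. Loco lay on the other side. Its share of intragenic peaks, 85.7%, exceeded that of 81.8% of its like genes (median 63.6%), and only 26.5% of these had a peak over the start, as Loco had. Neither EGFR nor Loco could have a downstream peak, while 32.7% of genes like EGFR and 71.1% of genes like Loco had none. The upstream and intragenic shares depend on this and on the distance to the next start on each side. Loco had a short stretch in front. Its upstream space to the next listed gene, 38.3 kb up to evm.TU.ctg756.9, exceeded that of 28.8% of the 552 measurable like genes. Identifiers jump from evm.TU.ctg756.7 to evm.TU.ctg756.9, so this interval too may hold a gene not analysed here.

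The 5 genes nearest to EGFR in length and peak number were evm.TU.ctg675.3, evm.TU.ctg3652.1, evm.TU.ctg456.9, evm.TU.ctg1770.2 and evm.TU.ctg141.20, with 28 or 29 peaks each. Their strongest peaks ranged from 2.18 to 11.8 RPM and their sums from 24.1 to 62.7 RPM, so EGFR was within both ranges. Of these, evm.TU.ctg141.20 had a similar layout, with 24 of 28 peaks upstream and 0 downstream, but its median peak had 0.662 RPM. The 5 nearest to Loco, evm.TU.ctg472.3, evm.TU.ctg178.13, evm.TU.ctg976.12, evm.TU.ctg34.49 and evm.TU.ctg213.13, each had 14 peaks. Their strongest peaks ranged from 1.06 to 2.64 RPM and their sums from 7.89 to 12.6 RPM, below the mean values of Loco. The closest of the 5 in signal was evm.TU.ctg213.13, which also had a peak over its start, with 2.64 ± 0.612 RPM, its strongest. That peak did not differ from the strongest Loco peak, 2.78 ± 0.536 RPM, beyond the spread between replicates.

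EGFR peaks were high for their width, whereas Loco peaks were ordinary. Against the median of all merged peaks in the same width class (10 classes from 200 to 1400 bp), 27 of 30 EGFR peaks were higher, 19 were above the upper quartile and 0 were below the lower quartile. The median EGFR peak was 1.47 times that of its class, with 1.58 times for upstream and 1.24 times for intragenic peaks. In 18 of the 30 EGFR peaks and 5 of the 14 Loco peaks all 3 replicates were above the median of the class. The share over all merged peaks is not given here, so these counts are descriptions. For Loco, 8 of 14 peaks were higher, 3 were above the upper quartile, 0 were below the lower quartile, and the median was 1.02 times that of the class. Within each gene signal went with width, with a Spearman coefficient of 0.894 across the 30 EGFR peaks and 0.934 across the 14 Loco peaks, and 0.780 across all merged peaks. Peaks of 1 library set share depth and a width drawn from the same reads, so these coefficients are descriptions. The 7 EGFR peaks of 2 RPM or more had 3 to 12 summits and 534 to 1186 bp, the 8 of 1 to 2 RPM had 1 to 5 summits and 251 to 657 bp, and the 15 below 1 RPM had 1 to 3 summits and 200 to 364 bp. Width and summits did not always go together, since the peak at 421170 to 421746 had 577 bp and 1 summit.

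**Figure D4:**
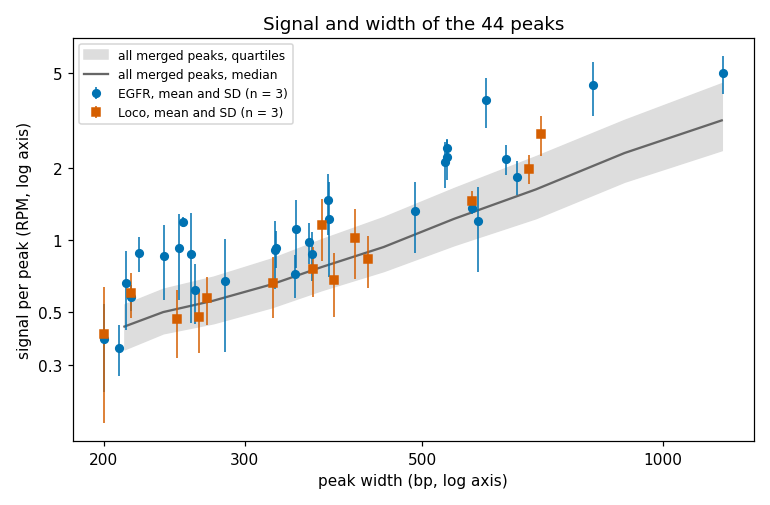
Signal (RPM, vertical log axis) against width (bp, horizontal log axis) of the 30 EGFR peaks (circles) and 14 Loco peaks (squares), as mean and SD of 3 replicates. The grey line and band are the median and quartiles of all merged peaks by width class, and 27 EGFR peaks but 8 Loco peaks lie above the median of their class.

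Most peaks of both genes stood above the read density between peaks, as did most merged peaks of the series. A peak was called above background when its reads exceeded those expected from the density outside peaks in a one-sided Poisson test in all 3 replicates, with Benjamini-Hochberg adjusted p under 0.05 over all merged peaks. This held for 28 of 30 EGFR and 12 of 14 Loco peaks, against 71.2% of all 108316 merged peaks. Peaks were called for enriched reads in the first place, so passing was partly built in. Both mates of a read pair were probably counted. With counts and background halved, 26 of 30 EGFR and 9 of 14 Loco peaks passed, against 61.5% of all. The Loco count was then near the share of all merged peaks. Width entered here, since 95.5% of all merged peaks of 500 bp or more passed and 54.6% of those under 300 bp. Of the narrow ones, 9 of 11 EGFR and 3 of 5 Loco peaks passed. From 300 to 500 bp, 77.9% of all merged peaks passed, with 9 of 9 EGFR and 6 of 6 Loco peaks. The EGFR peaks that failed were the weakest one and that at 372669 to 372868, with 0.387 ± 0.155 RPM. The Loco peaks that failed were the weakest one and the upstream peak at 578116 to 578362, with 0.470 ± 0.148 RPM.

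The median EGFR peak was higher than the median Loco peak in each replicate, with 1.24 against 0.670, 0.835 against 0.721 and 1.11 against 0.788 RPM. The difference on the log2(RPM + 0.0691) scale was 0.83, 0.20 and 0.46, with a mean of 0.50 ± 0.32 (SD, n = 3), and per kb of width it was 0.83, 0.05 and 0.41, with a mean of 0.43 ± 0.39. The same exact permutation of signs gave p = 0.25 for each, the smallest p possible. In replicate 2 the genes hardly differed per kb. Without replicate 1 the means were 0.33 and 0.23.

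Replicate 1 was the highest at most of the upstream EGFR peaks. The ratio of replicate 1 to the geometric mean of replicates 2 and 3 was above 1 at 19 of the 20 upstream EGFR peaks, and 17 had their highest value in replicate 1. Of all upstream peaks of the series, 49.4% had a ratio above 1 and 35.8% were highest in replicate 1. The median ratio of the upstream EGFR peaks was 1.48, against 0.995 for all upstream peaks of the series. Within bands of signal it was 1.53 for the 6 EGFR peaks of 0.5 to 1 RPM and 1.58 for the 6 of 1 to 2 RPM. For the 4 of 2 to 4 RPM it was 1.36, and for the 2 of 4 to 8 RPM 1.42. All upstream peaks of the series had 0.983, 1.07, 1.14 and 1.09 in these bands. Below 0.5 RPM the 2 EGFR peaks had a median of 1.32, against 0.898. Of the 10 assigned intragenic peaks, 4 were higher in replicate 1, the median ratio was 0.970, and 7 had their highest value in replicate 3. Of all intragenic peaks of the series, 54.4% were higher in replicate 1 and 35.2% were highest in replicate 3, with a median ratio of 1.04. These shares include 3126 peaks over gene starts, of which 91.2% were higher in replicate 1, so they are not fully alike to the EGFR set. With the 2 peaks assigned to evm.TU.ctg470.3, 6 of 12 peaks in the gene were higher in replicate 1, with a median ratio of 1.09. The difference in ratio between upstream and intragenic peaks was not tested. The 7 peaks beyond the middle of the interval, assigned to evm.TU.ctg470.6, had a median ratio of 0.975, with 3 of 7 higher in replicate 1. Over all its peaks EGFR had a ratio of 1.33, or 1.41 over replicate 2 and 1.18 over replicate 3 alone, and 4 of the 281 like genes had a higher ratio. Peaks over gene starts had 1.37 in the series as a whole, which is close to that of EGFR, although none of the EGFR peaks covers a start. The part of library preparation in this pattern was not tested.

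At Loco 7 of 14 peaks were higher in replicate 1, with a median ratio of 1.06, against 1.00 for all merged peaks, and over all 17 peaks in the gene body the ratio was 0.979. The 3 strongest peaks were highest in replicate 1, with ratios of 1.37, 1.26 and 1.19, and of the 9 peaks below 1 RPM 1 was highest there. Of all merged peaks 36.6% were highest in replicate 1, and of those over a gene start 84.8%. A rise of the ratio with signal was seen over the series up to 4 RPM. From below 0.5 RPM to 2 to 4 RPM it went from 0.898 to 1.14 upstream, and from 0.919 to 1.15 at intragenic peaks not over a start. At 4 to 8 RPM it was lower again, 1.09 upstream and 1.10 at intragenic peaks. The coefficient of variation between replicates had a median of 23.6% over EGFR peaks and 26.2% over Loco peaks, against 20.3% for all merged peaks. It ranged from 4.95% to 49.4% at EGFR and from 10.9% to 57.4% at Loco. A median Loco peak held 34.5, 40 and 64 reads in replicates 1, 2 and 3 and a median EGFR peak 65, 46.5 and 90.5, so values of replicate 3 carry the smallest counting error and those of Loco the larger ones.

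**Figure D5:**
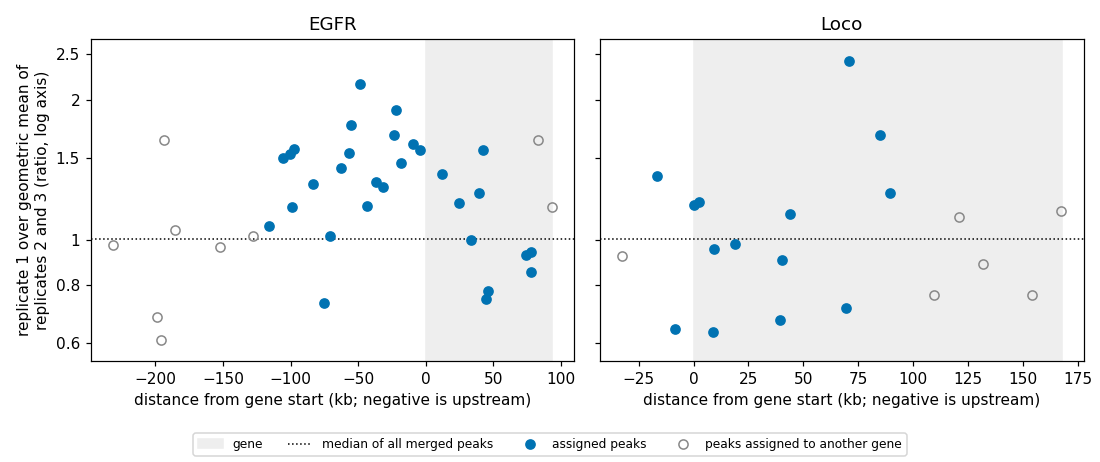
Ratio of replicate 1 to the geometric mean of replicates 2 and 3 (vertical log axis) for each peak against its distance from the gene start (kb, horizontal axis, upstream negative), for EGFR (left) and Loco (right). Filled circles are assigned peaks, open circles peaks assigned to a neighbouring gene, shading marks the gene and the dotted line is the median of all merged peaks. Of the 20 upstream EGFR peaks 19 lie above a ratio of 1, as do 49.4% of all upstream peaks of the series, and Loco peaks lie on either side.

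Of the signal transduction genes that the study lists beside EGFR and Loco, 4 more were measured. In RPM the strongest peak of EGFR exceeded that of each by more than the spread between replicates. Per kb of width that EGFR peak did so only for evm.TU.ctg470.6. The 4 were evm.TU.ctg33.11, named by the study as a GTPase-activating protein for RhoA/Rho1, evm.TU.ctg275.1, linked by the study to proton transfer, evm.TU.ctg470.6 and evm.TU.ctg658.6. Their strongest peaks had 2.76 ± 0.556, 2.55 ± 0.735, 1.85 ± 0.224 and 2.19 ± 0.705 RPM in this order, and the 2.78 ± 0.536 RPM of Loco did not differ from the first beyond its spread. Per kb these peaks had 6.32 ± 1.27, 3.91 ± 1.13, 1.77 ± 0.214 and 4.29 ± 1.38 RPM per kb. The strongest EGFR peak had 4.19 ± 0.754 and that of Loco 3.95 ± 0.761. Among these peaks, each picked by RPM, the narrower one of evm.TU.ctg33.11 had the highest mean per kb and that of evm.TU.ctg470.6 the lowest. Another EGFR peak, 18.1 kb upstream, had 6.38 ± 1.49 RPM per kb. Which peak of each of the 4 genes was highest per kb was not examined. The strongest peak of evm.TU.ctg33.11 lay 111 kb past its start, inside the gene. Their numbers of peaks were 19, 27, 13 and 1, which differ from those of EGFR and Loco, and a strongest peak tends to be higher where there are more peaks.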

How the data were processed

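ATAC-seq was done on 3 ArR_30min samples. Per the study's methods, the authors trimmed reads with skewer, aligned them with BWA to the *A. franciscana* assembly ASM3288406v1, a related species, so reads may be lost where the genomes diverge, and kept properly paired reads of good mapping quality outside the mitochondrial genome, without duplicates. MACS2 gave the peaks, which ChIPseeker annotated. The study's sample correlations used peaks merged over all its samples, other stages included, and whether the deposited table is that merge is not given in the sources used here. The authors deposited read counts per merged peak, which are not normalised, and RPM values, which equal the count plus 1 over a library total (to within 0.0005%). There were 0 columns of other samples. Library totals are close to 2 times the deduplicated reads of the study's mapping summary, so both mates of a pair were probably counted and reads are not independent. The Poisson test covers counting error only.

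Computations used Python 3.11.15, numpy 2.4.6, pandas 2.3.3 and scipy 1.17.1. RPM was used as deposited, and log2 values added 0.1 of the median over all peaks. Background density was the reads outside peaks over 1583 Mb, the contig extents seen in the table, less the peaks, and expected reads were taken over the peak width plus a read length of 150 bp. Joined identifiers (284 genes) were left out of like genes. Named were both genes, those the study lists with them, their neighbours, the 5 genes nearest in length and peak number, and the start or nearest, 5 strongest and weakest peaks. Members, lists and tests were chosen with earlier results of these data known. Exact tests with 3 samples cannot go below p = 0.25. Alternatives were pseudocount, scaling, filters, like-gene limits, background and leaving out replicates. No sequence of this assembly was used here.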

Additional observations from a re-analysis of the deposited data

How the results depend on the processing

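The placing of peaks inside the genes whichever gene they were assigned to, and the count above background without a read length added to the width, were chosen after seeing the data. Of 83 alternatives over 11 results, 72 moved the value by less than the SD between replicates or, for counts, kept it within 1.5 times, and, for differences, kept the sign and the side of the threshold, which 3 replicates cannot pass. Of the 27 on differences, 0 turned the sign. With a background 2 times higher, 15 EGFR and 3 Loco peaks stood above it, against 26.2% of all merged peaks. The EGFR strongest peak was higher than that of 68.0% of genes under the narrower limit on length and peak number, 80.5% within 2 times and 91.5% of all listed genes, and 71.2% to 72.2% with 1 replicate left out. The Loco strongest peak was higher than in 73.1% of all listed genes, and the Loco median peak than in 61.8% per kb, 58.4% of all listed genes and 52.8% with only peaks above background. The Loco ratio of replicate 1 was 1.04 to 1.17 against replicates 3 and 2 alone, and 0.994, on the other side of 1, when scaled by reads in peaks. With 1 replicate left out, EGFR minus Loco was 0.33 to 0.65, and 0.23 to 0.62 per kb, and intragenic minus upstream at EGFR -0.55 to -0.19. Intragenic or downstream minus upstream at Loco and downstream minus upstream at EGFR were not run, since a class held under 3 peaks. The cause of these shifts was not tested. Differences between genes and between peak classes were taken within each replicate, and with a single group there are no groups to pair.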
